A study of Rattus norvegicus with 45 samples.

Results

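The 9 genes described here code for enzymes that build long-chain fatty acids and set their length and their double bonds: Acly, Acaca, Fasn, Elovl5, Elovl6, Fads1, Fads2, Scd and Me1. They were chosen by name, as the genes whose symbol in the platform annotation is one of these 9. All 9 were found, among 14217 genes with a symbol, and they were read by 14 of the array's 31042 probe sets. A filter on low values kept 13 of the 14 probe sets and 11684 genes. All 9 genes passed it, and each gene is given by the probe set that was brightest on average among those tested.

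Gene expression was measured with 45 single-colour arrays of muscle from female SD rats, in 12 groups. The study asked what the statin cerivastatin does to skeletal muscle at rising doses, with and without treadmill exercise. Rats received 0.1, 0.5 or 1.0 mg/kg/day cerivastatin, an inhibitor of the cholesterol synthesis enzyme HMG-CoA reductase, or the vehicle, 0.5% methylcellulose, for 14 days. Exercised rats also ran on a treadmill for 20 min a day on 5 days a week. Gastrocnemius, a calf muscle rich in fast fibres, was taken at all doses, and soleus, a calf muscle rich in slow fibres, from rats on 1.0 mg/kg/day or vehicle. From the lowest dose to the highest, the gastrocnemius groups of exercised rats held 4, 3 and 4 samples, with 4 on vehicle. Those of unexercised rats held 4, 4 and 3 samples, with 4 on vehicle. The soleus groups held 4 samples of exercised rats at 1.0 mg/kg/day and 4 on vehicle, and 3 of unexercised rats at 1.0 mg/kg/day and 4 on vehicle. Samples are numbered as replicates, with no animal named. Soleus samples whose labels mention no running were taken as unexercised. Every group shares strain, sex and length of dosing.

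Fatty acid synthesis starts in the cytosol, where ATP citrate lyase (Acly) splits citrate from the mitochondrion into acetyl-CoA and oxaloacetate. Acetyl-CoA carboxylase alpha (Acaca) turns acetyl-CoA into malonyl-CoA, and fatty acid synthase (Fasn) joins malonyl units into palmitate with NADPH, part of which malic enzyme 1 (Me1) supplies. Elovl6 lengthens palmitate, Elovl5 lengthens polyunsaturated fatty acids, Scd makes monounsaturated fatty acids, and Fads1 and Fads2 add the double bonds of polyunsaturated ones. In liver and fat these genes are known targets of the sterol-sensing SREBP transcription factors. Fat cells express several of them at high levels, so fat between muscle fibres can add to what a muscle sample shows.

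The fast-fibre markers separated the muscles in both vehicle comparisons, and the slow-fibre markers in exercised rats but not in unexercised ones. The summed signal of 8 fast-fibre genes was 90993 to 290186 in soleus, against 540821 to 639702 in gastrocnemius. The summed signal of the slow-fibre genes was 437574 to 517519 in soleus, against 3282 to 375703 in gastrocnemius. In unexercised vehicle rats the fast-fibre sum was 99883 to 323251 in soleus, against 517362 to 547227 in gastrocnemius. The slow-fibre sum there was 326648 to 499286 in soleus, against 108437 to 358382 in gastrocnemius, so the muscles overlapped, and 0 of the 7 slow-fibre genes were called or had an unadjusted p under 0.05 in limma. The trimmed mean signal was 600.2 to 600.3 on every array, a sign of scaling before deposit, and the actin 5' to 3' signal ratio ran between 0.116 and 0.707. The number of arrays limits the precision. In 8 arrays the signal of Cfd, the fat-cell protease adipsin, was above 4 times the median of its muscle. In gastrocnemius these were replicate 3 of unexercised 1.0 mg/kg/day, replicate 3 of unexercised 0.1 mg/kg/day, replicate 4 of unexercised vehicle and replicate 4 of exercised 0.1 mg/kg/day. In soleus they were replicate 1 of exercised 1.0 mg/kg/day, replicates 3 and 4 of exercised vehicle and replicate 3 of unexercised vehicle. In whole muscle, fewer cells of a type and less RNA per cell cannot be told apart.

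In exercised gastrocnemius, 4 of the 9 enzymes rose at 1.0 mg/kg/day cerivastatin and 1 fell. Acly, Elovl5, Elovl6 and Fads1 were 4.12-fold to 6.48-fold higher than in vehicle rats, and Me1 fell to 0.197 of its vehicle level. Fasn, Fads2, Acaca and Scd did not pass the test. The median log2 fold change over the 9 genes was 1.72, beside 0.07 over all genes tested. This dose moved much of the transcriptome: of all genes, 49.6% were called, 27.7% as higher and 21.9% as lower, so that a count of 5 called among 9 is close to the background. Over all probe sets 4990 were higher and 4434 lower, and with each array centred on its median the split turned to 4420 and 4936. Fold changes are differences of mean log2(signal + 12.4), and a gene was called where limma's Benjamini-Hochberg adjusted p over all probe sets tested was under 0.05.

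Acly, which supplies acetyl-CoA to fatty acid and sterol synthesis alike, had signals of 1382, 3780, 1594 and 3385 in exercised rats on 1.0 mg/kg/day, against 354, 409, 429 and 407 in exercised vehicle rats. The treated arrays were all far above the vehicle arrays and lay in pairs, replicates 2 and 4 high and replicates 1 and 3 lower. Acly rose by 2.50 ± 0.40 on the log2 scale (SE, limma, adjusted p = 4.27e-05), a 5.64-fold difference.

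Acaca, the enzyme of the committed step, had signals of 675, 922, 591 and 738 in exercised rats on 1.0 mg/kg/day, against 508, 382, 483 and 437 on vehicle. The groups did not overlap, but the log2 difference of 0.67 ± 0.36 missed the threshold (limma, adjusted p = 0.134). The other Acaca probe set averaged 130.2 ± 20.0 in these treated rats and 152.9 ± 28.7 in the vehicle rats (SD, n = 4 each), with a log2 difference of -0.21 (limma, adjusted p = 0.552). The 2 Acaca probe sets thus gave opposite signs, neither past the test, and their log2 signals were uncorrelated over the 45 arrays (r = -0.053).

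Fasn, which makes palmitate, had signals of 884, 1472, 504 and 1153 in exercised rats on 1.0 mg/kg/day, against 284, 249, 278 and 290.3 on vehicle. All treated arrays were above all vehicle arrays, and the vehicle arrays were close together. The log2 difference of 1.72 ± 0.71 lay just outside the threshold (limma, adjusted p = 0.0519), and Fasn was called in 8 of 22 settings of the processing. The other Fasn probe set differed by 0.56 on the log2 scale (limma, adjusted p = 0.54).

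Elovl5, an elongase of polyunsaturated fatty acids, had signals of 2949, 5057, 3734 and 6069.7 in exercised rats on 1.0 mg/kg/day, against 987, 1178, 1091 and 895 on vehicle. The groups were wide apart, and replicates 2 and 4 were again the highest. Elovl5 rose by 2.04 ± 0.42 on the log2 scale (limma, adjusted p = 0.000405). Its other probe set also rose, by 1.39 (limma, adjusted p = 0.021), with means of 342.6 ± 84.3 on 1.0 mg/kg/day and 127 ± 49.9 on vehicle (SD, n = 4 each).

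Elovl6, the elongase that takes palmitate to stearate, had signals of 181, 699, 152 and 448 in exercised rats on 1.0 mg/kg/day, against 26.2, 30.1, 117 and 15.4 on vehicle. The groups did not overlap, although replicate 3 of the vehicle rats came close to the lowest treated array. Elovl6 rose by 2.70 ± 0.66 on the log2 scale (limma, adjusted p = 0.00175). Its other probe set was too dim to be tested and averaged 208.2 ± 125 on 1.0 mg/kg/day and 36.98 ± 23.1 on vehicle (SD, n = 4 each), with overlapping arrays.

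**Figure D1:**
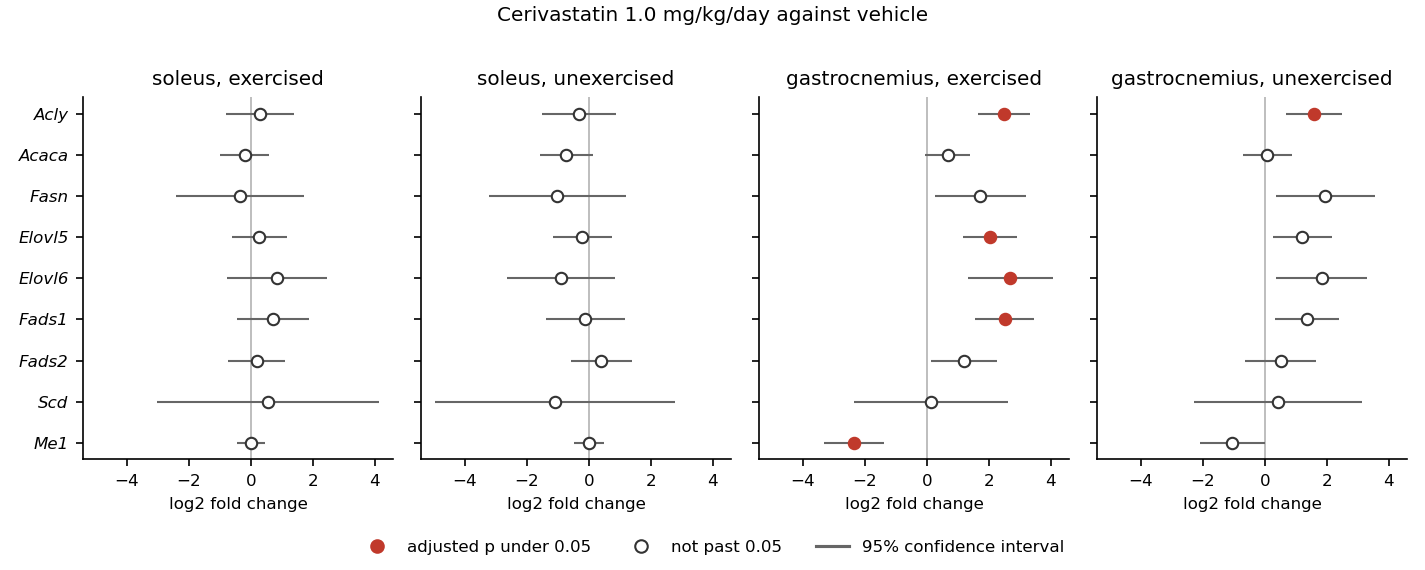
Log2 fold change of the 9 enzymes at 1.0 mg/kg/day cerivastatin over vehicle, with 95% confidence intervals, in 4 panels for exercised and unexercised soleus and for exercised and unexercised gastrocnemius; red points had an adjusted p under 0.05. Exercised gastrocnemius has 5 such points, from 2.70 for Elovl6 to -2.34 for Me1, unexercised gastrocnemius has 1, Acly, and soleus has none.

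Fads1, the delta-5 desaturase, had signals of 868, 3177, 1006 and 2024 in exercised rats on 1.0 mg/kg/day, against 243, 269.7, 303 and 229.5 on vehicle. All treated arrays were far above every vehicle array, with replicates 2 and 4 again on top. Fads1 rose by 2.51 ± 0.46 on the log2 scale (limma, adjusted p = 0.000142).

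Fads2, the delta-6 desaturase, had signals of 210.3, 334, 113 and 257 in exercised rats on 1.0 mg/kg/day, against 135, 80.6, 32.6 and 141 on vehicle. Replicate 3 on 1.0 mg/kg/day fell among the vehicle arrays, and the log2 difference was 1.20 ± 0.51 (limma, adjusted p = 0.0606). Scd, the delta-9 desaturase, had signals of 15.9, 419, 168 and 143 in exercised rats on 1.0 mg/kg/day, against 155, 144, 87.7 and 78.5 on vehicle. Treated arrays included both the lowest and the highest of the 8, and the log2 difference was 0.13 with a 95% confidence interval of -2.37 to 2.63 (limma, adjusted p = 0.942). That interval leaves a large difference in either direction possible.

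Me1, which makes NADPH from malate, ran the other way. Its signals were 3083, 899.5, 2861 and 735 in exercised rats on 1.0 mg/kg/day, against 8649, 6406, 7922 and 9115 on vehicle. Every treated array was below every vehicle array, and replicates 2 and 4, the highest for Acly, Elovl5, Elovl6 and Fads1, were the lowest for Me1. Me1 fell by 2.34 ± 0.47 on the log2 scale (limma, adjusted p = 0.000296), and its other probe set fell by 1.79 (limma, adjusted p = 0.00119).

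Upstream sequence from RefSeq (assembly GRCr8) was found for 6 of the 9 genes and not for Acaca, Fasn and Elovl6. It is shown for the called genes among the 6, since Acly, Elovl5 and Fads1 rose together in exercised gastrocnemius while Me1 fell. Each sequence is the 250 bases before the annotated start, 5′ to 3′ on the gene's strand, and capitals mark CCAAT in either orientation, the box bound by the factor NF-Y. The coordinates are chr10:85963632-85963881 on the minus strand for Acly, chr8:87670914-87671163 on the plus strand for Elovl5, chr1:216252442-216252691 on the plus strand for Fads1 and chr8:96540245-96540494 on the minus strand for Me1.
Acly: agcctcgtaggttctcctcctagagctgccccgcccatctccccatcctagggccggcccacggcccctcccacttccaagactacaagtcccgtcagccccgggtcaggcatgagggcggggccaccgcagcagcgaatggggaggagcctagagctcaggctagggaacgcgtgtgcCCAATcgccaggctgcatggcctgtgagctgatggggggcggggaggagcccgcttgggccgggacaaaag
Elovl5: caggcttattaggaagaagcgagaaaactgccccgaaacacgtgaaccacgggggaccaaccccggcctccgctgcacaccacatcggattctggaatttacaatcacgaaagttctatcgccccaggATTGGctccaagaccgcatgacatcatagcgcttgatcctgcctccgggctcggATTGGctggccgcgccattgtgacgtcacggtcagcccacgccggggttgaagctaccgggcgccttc
Fads1: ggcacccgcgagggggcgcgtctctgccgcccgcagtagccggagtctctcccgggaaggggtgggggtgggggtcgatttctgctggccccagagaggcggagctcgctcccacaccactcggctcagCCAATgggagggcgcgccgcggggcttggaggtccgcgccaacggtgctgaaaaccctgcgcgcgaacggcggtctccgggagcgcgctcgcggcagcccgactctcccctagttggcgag
Me1: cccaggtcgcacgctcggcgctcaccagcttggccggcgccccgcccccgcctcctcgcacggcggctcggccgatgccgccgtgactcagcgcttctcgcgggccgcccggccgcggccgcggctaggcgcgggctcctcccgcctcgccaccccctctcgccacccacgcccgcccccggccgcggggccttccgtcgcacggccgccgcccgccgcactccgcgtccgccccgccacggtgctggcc

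Motifs were searched on both strands in windows of 300 bases, 250 before the start and 50 after it. CCAAT was found once for Acly, 71 bases before the start, once for Fads1, 121 bases before it, and in the opposite orientation at 122 and 68 bases before the start of Elovl5. No CCAAT was found in the windows of Fads2, Scd or Me1. Of 33469 promoter windows in the table, 37.5% held it. GGGCGG, the box bound by SP1, was found 5 times for Me1, 3 times for Acly and once each for Fads1 and Fads2, and 33.1% of all windows held it. CACGTG, a palindrome read by E-box factors, was found once for Elovl5, 212 bases before the start, and in 6.4% of all windows. TCACNCCAC, one form of the sterol regulatory element, was found in none of the 6 windows and in 1.117% of all. A match is only a match of letters.

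**Figure D2:**
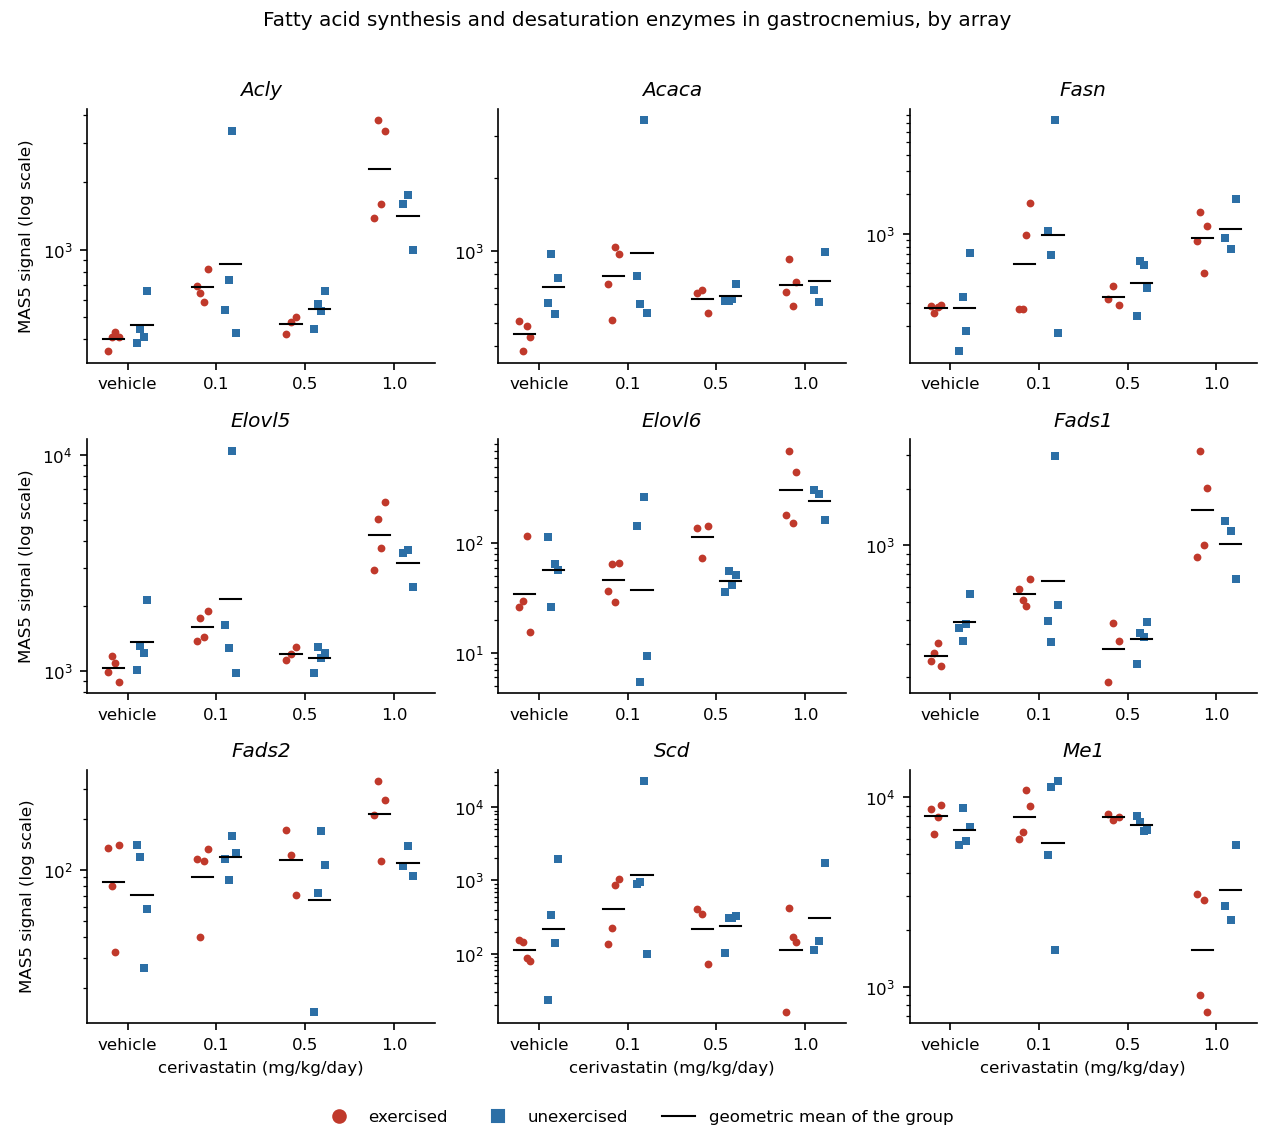
Signal (deposited MAS5 signal, log axis) of each enzyme on each gastrocnemius array by daily dose, vehicle to 1.0 mg/kg/day; red circles are exercised rats, blue squares unexercised rats, and black lines geometric means. Acly, Elovl5, Elovl6 and Fads1 stand highest and Me1 lowest at 1.0 mg/kg/day, and 1 unexercised array at 0.1 mg/kg/day, with an Acly signal of 3398, stands apart.

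Markers of other cells moved with this dose. All 12 tested of 14 listed macrophage genes rose in exercised gastrocnemius, with a summed signal of 97382 to 188786 on 1.0 mg/kg/day, against 5883 to 7742 on vehicle. Of the 8 fast-fibre genes 7 fell, with a sum of 114162 to 248620 on 1.0 mg/kg/day, against 540821 to 639702 on vehicle. Of the slow-fibre genes none was called by limma, and their sum was 3871 to 186277 on 1.0 mg/kg/day, against 3282 to 375703 on vehicle. Of the Schwann cell genes 1, Pmp22, rose, and of the hepatocyte genes none was called by limma, with a sum of 142 to 331 on 1.0 mg/kg/day, against 210 to 1603 on vehicle. The part of these shifts in the enzymes' differences was not tested.

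Fat-cell markers did not move together at this dose. The summed signal of the fat-cell genes, of which 7 of 10 listed were tested, was 8440 to 21765 in exercised rats on 1.0 mg/kg/day, against 5813 to 7879 on vehicle. Among them Cfd had signals of 2393, 6391, 3632 and 7701 on 1.0 mg/kg/day, against 679, 859.6, 1852 and 751 on vehicle, and missed the threshold (log2 difference 2.25 ± 0.96, limma, adjusted p = 0.059). Adipoq, the fat-cell hormone adiponectin, was at 100.5, 147, 78.6 and 59 on 1.0 mg/kg/day, against 124, 129, 215 and 130.1 on vehicle. Plin1, the coat protein of fat droplets, was at 93.7, 199, 136 and 84.5 on 1.0 mg/kg/day, against 62.8, 219.6, 124 and 220.4 on vehicle. Both lay in the same low range in treated and vehicle rats, with log2 differences of -0.61 and -0.19 (limma, adjusted p = 0.755 and 0.909). Lipe, the hormone-sensitive lipase, fell by 1.44 (limma, adjusted p = 5.01e-05).

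The calls were repeated with a fat term in the fit. With Cfd as a covariate, Acly was higher by 1.85, Elovl5 by 1.29, Elovl6 by 2.05 and Fads1 by 1.86, and Me1 fell by 1.93, all past the threshold (limma, adjusted p between 0.00027 and 0.0192). In that fit Scd was called too, as lower, with a log2 difference of -2.27 (limma, adjusted p = 0.0162), the reverse of its sign without the covariate, and Fasn differed by 0.27 (limma, adjusted p = 0.631). With the mean of Adipoq and Plin1 as the covariate in place of Cfd, a choice made after seeing the data, Fasn passed with 1.91 (limma, adjusted p = 0.000297) and Acaca with 0.75 (limma, adjusted p = 0.0231), and the 5 called genes kept differences of 2.56 for Acly, 2.13 for Elovl5, 2.77 for Elovl6, 2.58 for Fads1 and -2.38 for Me1. The calls of Fasn, Acaca and Scd therefore depended on which fat marker stood in the fit, while the 5 calls held under both. Those of Fasn and Acaca also depended on arrays outside the compared groups, which share the estimate of spread. The high-Cfd arrays all lay in other groups. Without them the log2 differences stayed at 1.72 for Fasn and 0.67 for Acaca, with smaller SE of 0.455 and 0.199. Both were then called (limma, adjusted p = 0.00298 and 0.00738).

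In unexercised gastrocnemius, 1 of the 9 enzymes, Acly, rose at 1.0 mg/kg/day, against a background of 11.3% of genes called, 7.32% higher and 3.96% lower. The other 8 missed the threshold, and 6 of the 9 had an unadjusted p under 0.05, beside 31.6% of all genes. The median log2 fold change of the 9 was 1.21, beside 0.068 over all genes. On the arrays, 5 enzymes were higher and Me1 lower with no overlap between the groups. The share of all genes without such overlap was not computed, so this count has no background beside it.

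Acly had signals of 1601, 1761 and 1002 in unexercised rats on 1.0 mg/kg/day, against 383, 446, 409 and 657 on vehicle. The groups did not overlap, and Acly rose by 1.58 ± 0.43 on the log2 scale (limma, adjusted p = 0.0274). That call was lost when replicate 1, 2 or 3 of vehicle (adjusted p = 0.0638, 0.0589 and 0.0624) or replicate 1 or 2 of 1.0 mg/kg/day (adjusted p = 0.2 and 0.264) was left out of the limma fit. It rests on few arrays.

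Replicate 3 of this group stood apart from the other 2. Its summed macrophage signal was 12533, against 121641 and 137514 in replicates 1 and 2 and 4458 to 15694 on vehicle. Its Adipoq signal was 4526, against 67.1 and 150.4 in replicates 1 and 2 and 90.5, 76.2, 118 and 1829 on vehicle. Its Cfd signal, 14365, was the highest of the 3.

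The enzymes differed on that array too. Elovl5 had signals of 3539, 3637 and 2463 on 1.0 mg/kg/day, against 1013, 1309.5, 1209.7 and 2133 on vehicle (log2 difference 1.21, limma, adjusted p = 0.0838). Fads1 had signals of 1348, 1189 and 666 on 1.0 mg/kg/day, against 365, 312, 383 and 550.2 on vehicle (log2 difference 1.35, limma, adjusted p = 0.0791). Both were lowest on replicate 3, yet above every vehicle array. Elovl6 had signals of 309, 279 and 165 on 1.0 mg/kg/day, against 114, 26.2, 64.5 and 57.7 on vehicle, with the same array lowest (log2 difference 1.83, limma, adjusted p = 0.093).

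Me1 had signals of 2668, 2238 and 5609.6 in unexercised rats on 1.0 mg/kg/day, against 5615, 8837, 5873 and 6948 on vehicle. Replicates 1 and 2 were well below vehicle, and replicate 3 nearly met the lowest vehicle array (log2 difference -1.05 ± 0.50, limma, adjusted p = 0.171). Fasn ran in the other order, with its highest treated signal on replicate 3: 938, 762 and 1829 on 1.0 mg/kg/day, against 128, 328, 182 and 709.7 on vehicle (log2 difference 1.95 ± 0.77, limma, adjusted p = 0.0982). Scd did so more widely, with 112, 150.3 and 1751 on 1.0 mg/kg/day, against 23, 338, 138 and 1953 on vehicle, where the bright vehicle array was replicate 4, the one with high Cfd. The Scd groups overlapped fully.

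Acaca and Fads2 showed little in unexercised rats. Acaca had signals of 683, 611 and 987 on 1.0 mg/kg/day, against 603, 972, 547 and 769 on vehicle. Fads2 had 105, 138 and 91.5 on 1.0 mg/kg/day, against 141, 118, 26.3 and 58.5 on vehicle. Both overlapped between the groups, with log2 differences of 0.08 and 0.51 (limma, adjusted p = 0.921 and 0.592).

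Without the arrays of high Cfd, which takes out replicate 3 of 1.0 mg/kg/day and replicate 4 of vehicle, 6 of the 9 enzymes were called in unexercised rats. Acly was then higher by 2.00, Fasn by 2.03, Elovl5 by 1.60, Elovl6 by 2.08 and Fads1 by 1.81, and Me1 fell by 1.44 (limma, adjusted p between 1.66e-05 and 0.0409). In that fit 2 treated arrays remained, so the treated means rest on them. The calls rest on the pooled spread too, since replicate 3 of unexercised and replicate 4 of exercised 0.1 mg/kg/day were also left out. The SE of Acly was 0.306 in that fit, against 0.434 with all arrays. Leaving out the 3 arrays of lowest actin ratio instead, none of them in the compared groups, raised the count as well, as given at the end. With Cfd as a covariate and all arrays kept, none of the 9 was called by limma.

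The effect of 1.0 mg/kg/day was not shown to differ between exercised and unexercised rats. In the interaction fit 0 of the 9 enzymes and 0% of all genes were called by limma, and 0 of the 9 had an unadjusted p under 0.05, beside 6.68% of all genes. The difference of log2 fold changes, exercised minus unexercised, was 0.91 for Acly with a 95% confidence interval of -0.32 to 2.14, 1.16 for Fads1 (-0.25 to 2.57) and -1.29 for Me1 (-2.72 to 0.14). Intervals this wide leave room for differences in either direction.

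At the lower doses none of the 9 enzymes was called, and 0% of all genes were called in each of the 4 comparisons, which share their vehicle arrays with the comparisons at 1.0 mg/kg/day. At 0.5 mg/kg/day in exercised rats the log2 differences ran between -0.02 for Me1 and 1.36 for Elovl6, with 0 unadjusted p under 0.05 among the 9 and 2.37% among all genes. Me1 signals there were 8149, 7563 and 7894 on 0.5 mg/kg/day, against 8649, 6406, 7922 and 9115 on vehicle, an overlap of the whole range. In unexercised rats the log2 differences at 0.5 mg/kg/day ran between -0.30 and 0.62, again with 0 unadjusted p under 0.05 among the 9 and 2.22% among all genes.

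At 0.1 mg/kg/day in exercised rats, Acaca and Fads1 had an unadjusted p under 0.05 (limma, 0.0367 and 0.0302), beside 2.72% of all genes. Fads1 had signals of 584, 513, 474 and 665 on 0.1 mg/kg/day, against 243, 269.7, 303 and 229.5 on vehicle, without overlap (log2 difference 1.06). Acly had signals of 691, 641, 585 and 823 on 0.1 mg/kg/day, against 354, 409, 429 and 407 on vehicle, also without overlap. Neither difference passed after Benjamini-Hochberg adjustment in limma, and at 0.5 mg/kg/day both genes overlapped with vehicle: Fads1 had 189, 386 and 311, and Acly 420.3, 478 and 504. The order of these groups did not follow the dose. Fat-cell markers moved with the 0.1 mg/kg/day group, with a summed signal of 7338 to 34789 on 0.1 mg/kg/day, against 5813 to 7879 on vehicle. Cfd was at 895, 4536, 5147 and 15537 on 0.1 mg/kg/day, against 679, 859.6, 1852 and 751 on vehicle, and Adipoq at 44.8, 974, 1537 and 3476, against 124, 129, 215 and 130.1. All but replicate 1 were above every vehicle array for both, none of the fat-cell genes was called by limma, 2 of 7 had an unadjusted p under 0.05, and their part in the result was not tested.

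At 0.1 mg/kg/day in unexercised rats the log2 differences ran between -0.23 for Me1 and 2.31 for Scd, and Acly and Fasn had an unadjusted p under 0.05 (limma, 0.0348 and 0.0169), beside 3.79% of all genes. A single array, replicate 3, held much of this. Its Scd signal was 22746, against 901, 949 and 98.9 on the other 3. Its Fasn signal was 7304, against 1053, 686 and 176, and its Me1 signal was 1559, against 4986, 11400 and 12184. The same array had the highest Cfd signal of all, 43968, an Adipoq signal of 24609, against 513, 179 and 70.2 on the other 3, and the lowest actin 5' to 3' ratio, 0.116. The part of these in its enzyme signals was not tested.

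Exercise alone moved none of the 9 enzymes past the threshold. In vehicle rats the log2 difference, exercised minus unexercised, ran between -0.99 for Scd and 0.25 for Me1 in gastrocnemius, and between -0.99 for Elovl6 and -0.06 for Elovl5 in soleus. In both muscles 0% of all genes were called by limma, and 0 of the 9 had an unadjusted p under 0.05, beside 2.46% of all genes in gastrocnemius and 2.5% in soleus.

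In soleus, 1.0 mg/kg/day left all 9 enzymes without a call. In exercised and in unexercised rats alike 0% of all genes were called by limma, and 0 of the 9 had an unadjusted p under 0.05, beside 5.24% and 2.36% of all genes. The median log2 difference of the 9 was 0.27 in exercised and -0.328 in unexercised rats.

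Me1 was the steadiest of them. Its soleus signals were 2310.4, 4026, 3607 and 4236 in exercised rats on 1.0 mg/kg/day, against 3499.5, 3844, 3280.4 and 3186 on vehicle. The groups overlapped, and the log2 difference was 0.00 with a 95% confidence interval of -0.44 to 0.45. In unexercised rats the signals were 3546, 4175 and 4149 on 1.0 mg/kg/day, against 4327, 4948, 2659 and 4174 on vehicle, with a log2 difference of 0.01 (-0.47 to 0.49). Both intervals exclude a fall of the size seen in exercised gastrocnemius.

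Acly had soleus signals of 2477, 417, 763 and 657 in exercised rats on 1.0 mg/kg/day, against 642, 445, 894 and 886 on vehicle. Replicate 1 of the treated rats was far above the rest, and the other 3 lay within the vehicle range or just under it (log2 difference 0.30, 95% confidence interval -0.81 to 1.40). The same array was the highest treated soleus array for Scd, at 14761, against 190.1, 1107 and 659.6 on the other 3, and it carried a Cfd signal of 41071. Elovl5 differed by 0.27 (-0.61 to 1.15), Fads1 by 0.71 (-0.46 to 1.88), Elovl6 by 0.83 (-0.78 to 2.45) and Scd by 0.55 (-3.04 to 4.13).

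Elovl5 had soleus signals of 6583, 1986, 2601 and 2433 in exercised rats on 1.0 mg/kg/day, against 1891, 1771, 3228 and 3609.8 on vehicle. Fads1 had 2195, 445, 582 and 798 on 1.0 mg/kg/day, against 385, 298, 660.1 and 809 on vehicle. Both groups overlapped apart from the same bright treated array, replicate 1, and Fasn was brightest there too, at 5701, against 415, 695 and 694 on the other 3. Acaca had 1821, 1016, 879 and 835 on 1.0 mg/kg/day, against 2082, 626, 1129 and 1611 on vehicle, a full overlap.

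In unexercised rats the soleus log2 differences ran between -1.08 for Scd and 0.40 for Fads2. Acly had signals of 634, 536 and 886 on 1.0 mg/kg/day, against 445, 1053, 2074 and 519.5 on vehicle, so that the treated arrays lay inside the vehicle range. Scd had 672, 199 and 1693 on 1.0 mg/kg/day, against 197, 2192, 13834 and 477 on vehicle, and the bright vehicle array, replicate 3, was the one with a Cfd signal of 40884.

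**Figure D3:**
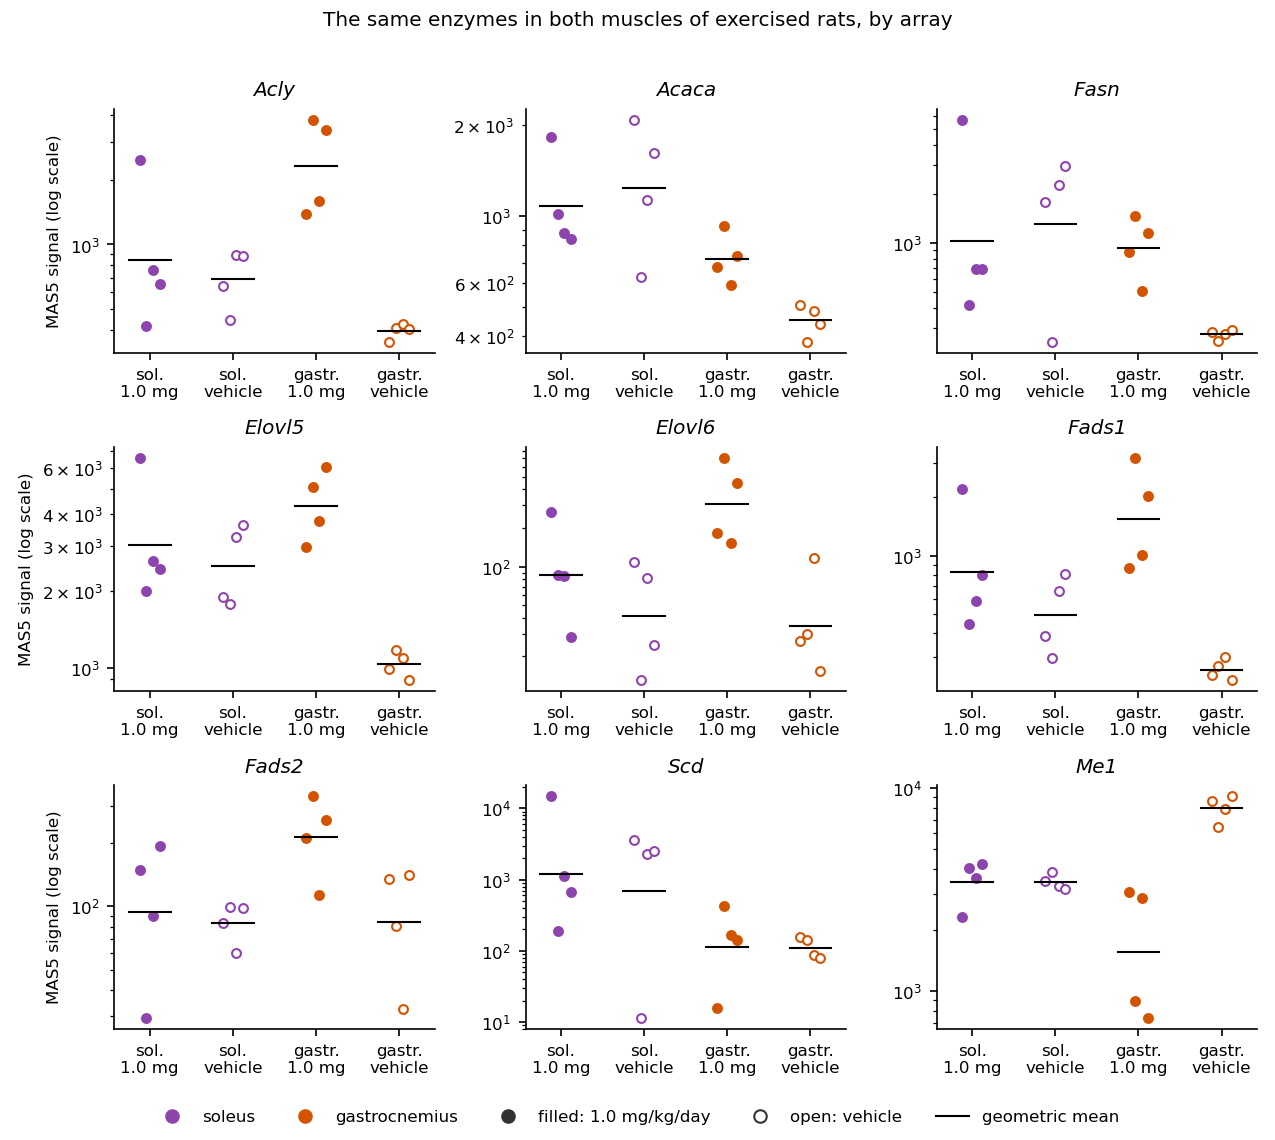
Signal (deposited MAS5 signal, log axis) of each enzyme on each array of exercised rats, with soleus at 1.0 mg/kg/day, soleus vehicle, gastrocnemius at 1.0 mg/kg/day and gastrocnemius vehicle from left to right; black lines are geometric means. Me1 lies between 735 and 3083 in treated and between 6406 and 9115 in vehicle gastrocnemius, and the soleus groups overlap for all 9 enzymes.

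The muscles were compared on vehicle before their responses were. Input RNA was 3 µg for soleus and 4 µg for gastrocnemius, so that input and muscle cannot be told apart, and whether both muscles came from the same rats is not given in the labels. In exercised vehicle rats 2 of the 9 enzymes, Acaca and Elovl5, were higher in soleus and 1, Me1, was lower, beside 15.1% of all genes called, 7.56% higher and 7.58% lower. Acaca had signals of 2082, 626, 1129 and 1611 in soleus, against 508, 382, 483 and 437 in gastrocnemius, without overlap, and rose by 1.44 ± 0.37 on the log2 scale (limma, adjusted p = 0.00818). The other Acaca probe set did not show this (log2 difference -0.26, limma, adjusted p = 0.601).

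Elovl5 had signals of 1891, 1771, 3228 and 3609.8 in soleus of exercised vehicle rats, against 987, 1178, 1091 and 895 in gastrocnemius, a log2 difference of 1.27 ± 0.43 (limma, adjusted p = 0.0456). Me1 had signals of 3499.5, 3844, 3280.4 and 3186 in soleus, against 8649, 6406, 7922 and 9115 in gastrocnemius, a log2 difference of -1.21 ± 0.41 (limma, adjusted p = 0.0436). Neither gene overlapped between the muscles. Of the 8 fits that left out 1 array, the Acaca call held in all, the Elovl5 call in the one without soleus replicate 2 and the Me1 call in the one without gastrocnemius replicate 2.

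Fasn and Scd were bright on 3 of 4 soleus arrays. Fasn had signals of 1785, 247, 2265 and 2988 in soleus of exercised vehicle rats, against 284, 249, 278 and 290.3 in gastrocnemius (log2 difference 2.22, limma, adjusted p = 0.0739). Scd had 3562, 11.3, 2279 and 2539 in soleus, against 155, 144, 87.7 and 78.5 in gastrocnemius (log2 difference 2.76, limma, adjusted p = 0.211). On soleus replicate 2 both genes were below every gastrocnemius array.

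Fat-cell markers moved with this comparison, though not all in 1 direction. Of 7 tested, limma called 3 higher in soleus, Cfd, Cidec and Fabp4, and 1 lower, Lipe. The summed signal of the 7 was 12531 to 63922 in soleus, against 5813 to 7879 in gastrocnemius. Cfd rose by 3.36 (limma, adjusted p = 0.022), with signals of 5489, 2167, 28961 and 27197 in soleus, against 679, 859.6, 1852 and 751 in gastrocnemius. Adipoq was at 1468, 335, 6477 and 7013 in soleus, against 124, 129, 215 and 130.1 in gastrocnemius. Replicate 2, dim for Fasn and Scd, had the lowest Cfd and Adipoq signals of the 4. With Cfd as a covariate, or with the mean of Adipoq and Plin1, 0 of the 9 enzymes were called by limma. Cfd itself was called between the muscles, so the fit with Cfd cannot fully part fat from muscle. Of the 22 settings that gave each a value, Acaca was called in 20, Elovl5 in 11 and Me1 in 9. Beyond these settings, the part of the fat-cell markers in the result was not tested.

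In unexercised vehicle rats 0 of the 9 enzymes were called between the muscles by limma, beside 8.38% of all genes, 3.83% higher and 4.54% lower, and 3 of the 9 had an unadjusted p under 0.05, beside 24.6% of all genes. With each array centred on its median instead, the split over all probe sets was 490 higher and 874 lower, against 709 and 817 in the scaling as deposited. The log2 differences, soleus minus gastrocnemius, were 2.58 for Fasn (limma, adjusted p = 0.0553), 1.06 for Acaca (0.0761), 0.93 for Elovl5 (0.195) and -0.77 for Me1 (0.264).

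The response to 1.0 mg/kg/day differed between the muscles of exercised rats for 3 of the 9 enzymes, with 29.3% of all genes called, 12.5% with a higher and 16.8% with a lower response in soleus. Over all probe sets 2523 had a higher and 2968 a lower response, and with each array centred on its median the split turned to 2817 and 2497. The log2 fold change in soleus minus that in gastrocnemius was -2.20 ± 0.65 for Acly (limma, adjusted p = 0.0125), -1.77 ± 0.61 for Elovl5 (0.0304) and 2.35 ± 0.58 for Me1 (0.0035). Fads1, with -1.80 ± 0.72, missed the threshold (limma, adjusted p = 0.0624), as did Fasn, Elovl6, Fads2, Acaca and Scd. The Acly and Me1 calls held when any 1 array was left out. The Elovl5 call was lost without replicate 4 of gastrocnemius vehicle, replicates 2 or 4 of gastrocnemius 1.0 mg/kg/day, replicates 3 or 4 of soleus vehicle, or replicates 2, 3 or 4 of soleus 1.0 mg/kg/day.

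Macrophage markers moved with this difference as well. All 12 tested macrophage genes had a lower response in soleus. Their summed signal in soleus was 13639 to 33360 on 1.0 mg/kg/day, against 7389 to 18036 on vehicle, with none of the 12 called by limma there, while the gastrocnemius sums given above did not overlap. Their part in the enzymes' interaction was not tested.

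In unexercised rats 0 of the 9 enzymes were called in the muscle interaction by limma, beside 0.0171% of all genes, and 4 of the 9 had an unadjusted p under 0.05, beside 21% of all genes. The differences had the same signs as in exercised rats for Acly (-1.91), Elovl5 (-1.42), Elovl6 (-2.72), Fads1 (-1.46), Fasn (-2.97) and Me1 (1.06), with adjusted p between 0.154 and 0.362 in limma.

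The levels across the 12 groups fell into distinct orders. Mean log2(signal + 12.4) was highest at 1.0 mg/kg/day in exercised gastrocnemius and next highest at that dose in unexercised gastrocnemius for Acly (11.18 ± 0.74 and 10.48 ± 0.43), Elovl5 (12.07 and 11.63), Elovl6 (8.32 and 7.995) and Fads1 (10.60 and 10.02). All 4 were lowest in exercised gastrocnemius on vehicle, at 8.68 ± 0.12 for Acly, 10.03 for Elovl5, 5.62 for Elovl6 and 8.09 for Fads1. Acaca, Fasn and Scd were instead highest in unexercised soleus on vehicle, at 10.55 ± 0.48, 10.74 ± 1.53 and 10.38 ± 2.66, where the SD shows how far single arrays spread.

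Me1 had the reverse order. It was highest in exercised gastrocnemius at 12.96 ± 0.22 on vehicle, with 12.95 on the low and 12.94 on the middle dose, and lowest at 1.0 mg/kg/day, with 11.66 ± 0.70 in unexercised and 10.62 ± 1.08 in exercised rats. The 4 soleus groups lay between, at 11.76 to 11.95. Fads2 was highest at 1.0 mg/kg/day in exercised gastrocnemius (7.82 ± 0.62) and lowest at 0.5 mg/kg/day in unexercised gastrocnemius (6.39 ± 1.19).

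Neighbours in these orders mostly did not differ beyond their spread. Each gene has 11 pairs of neighbouring groups. The arrays of neighbours were separate in 1 pair for Elovl6, unexercised gastrocnemius at 1.0 mg/kg/day above exercised gastrocnemius at 0.5 mg/kg/day, and in 1 pair for Acaca, exercised gastrocnemius at 0.5 mg/kg/day above that on vehicle. For the other 7 genes all neighbouring groups overlapped.

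The enzymes differed in how closely they moved with the fat-cell marker Cfd among arrays of the same group. Correlations were taken over deviations of log2 signals from the group means, in 30 gastrocnemius and 15 soleus arrays, for 18 relations, with a two-sided permutation test and Benjamini-Hochberg adjustment. Of the 18, 13 had an adjusted p under 0.05. The share of all genes that moved with Cfd in this way was not computed, so the count is not shown to be particular to these enzymes. In gastrocnemius Fasn (Pearson's r = 0.873, Spearman's rho = 0.773, adjusted permutation p = 0.00027 for r) and Scd (r = 0.85, rho = 0.716, adjusted permutation p = 0.00027) were the closest. Without the 2 arrays farthest from the median of Cfd, replicate 3 of unexercised and replicate 4 of exercised 0.1 mg/kg/day, r was 0.747 for Fasn and 0.769 for Scd.

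Acly, Fads1 and Acaca leaned more on those 2 arrays. In gastrocnemius r was 0.701 for Acly (rho = 0.62, adjusted permutation p = 0.0066) and 0.411 without them, 0.609 for Fads1 (rho = 0.521, adjusted permutation p = 0.029) and 0.235 without them, and 0.695 for Acaca (rho = 0.592, adjusted permutation p = 0.028) and 0.353 without them. Elovl5 had r = 0.775 (rho = 0.708, adjusted permutation p = 0.0019) and 0.603 without them. Elovl6, Fads2 and Me1 did not pass in gastrocnemius, at r = 0.435, 0.09 and -0.387 (rho = 0.344, 0.034 and -0.144, adjusted permutation p = 0.12, 0.64 and 0.2). With the mean log2 of Adipoq, Plin1, Cidec and Cfd in place of Cfd, r without the same 2 arrays was 0.103 for Acly, 0.018 for Fads1 and 0.333 for Elovl5. By that measure it was 0.35 for Acaca, 0.733 for Fasn and 0.737 for Scd.

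In soleus the relation to Cfd was close for 5 of the 9 enzymes. It was r = 0.943 for Elovl5 (rho = 0.929), 0.918 for Fads1 (rho = 0.882), 0.915 for Fasn (rho = 0.886), 0.893 for Acly (rho = 0.879) and 0.864 for Scd (rho = 0.8), with adjusted permutation p between 0.00047 and 0.0019. Without replicate 3 of unexercised vehicle and replicate 1 of exercised 1.0 mg/kg/day these stayed between 0.771 and 0.951. Me1 ran against Cfd (r = -0.71, rho = -0.554, adjusted permutation p = 0.025), but r was -0.26 without those 2 arrays, so the relation rests on them. Acaca had r = 0.633 (rho = 0.571, adjusted permutation p = 0.046), and Elovl6 and Fads2 did not pass.

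**Figure D4:**
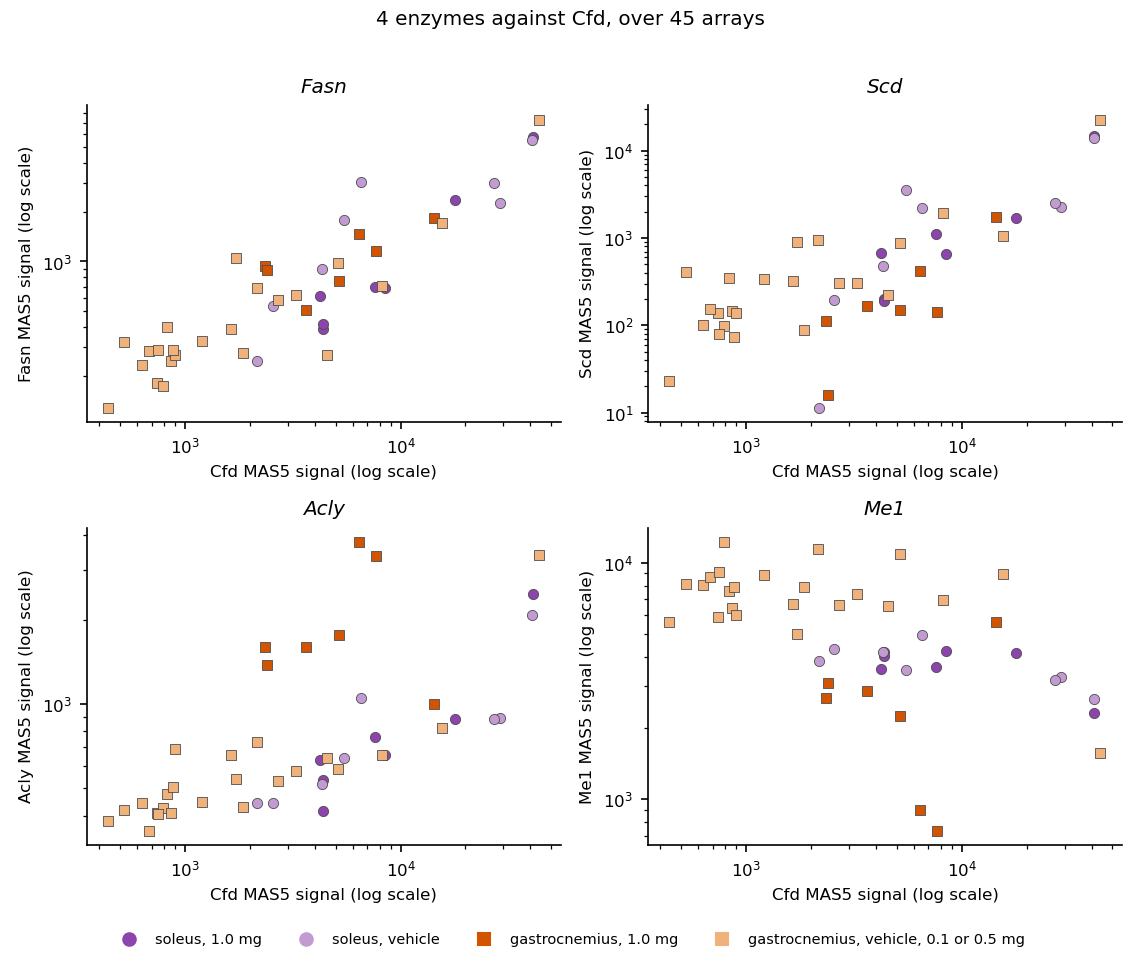
Signal of Fasn, Scd, Acly and Me1 against the signal of the fat-cell marker Cfd on the same array (deposited MAS5 signals, both axes log) for 45 arrays, coloured by muscle and dose. Fasn and Scd climb with Cfd in both muscles, while the gastrocnemius arrays at 1.0 mg/kg/day stand above the other gastrocnemius arrays of like Cfd for Acly and below them for Me1.

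Among themselves the enzymes formed pairs, described here by r of deviations of log2 signals from the group means. It was taken over the 30 gastrocnemius arrays, which share scaling, and differences between groups do not enter it. Acly went with Elovl5 (0.934) and Fads1 (0.913), Fasn with Scd (0.862) and Acaca (0.843), and Me1 ran against Fads1 (-0.83), Acly (-0.826), Elovl6 (-0.802) and Elovl5 (-0.799). Fads2 went with none of the others above 0.315. Over the 15 soleus arrays, Elovl5 went with Fads1 (0.963) and Acly (0.937), and Fasn with Scd (0.955). These r were not recomputed without single arrays. The gastrocnemius array of highest Cfd, replicate 3 of unexercised 0.1 mg/kg/day, is among those that enter them.

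The genes most like each enzyme over the 30 gastrocnemius arrays were ranked by Pearson's r of log2 signals. Candidates were tested genes other than the enzymes themselves, without symbols starting with LOC or RGD. This r keeps differences between groups, unlike the r of the enzyme pairs above. At 1.0 mg/kg/day in exercised gastrocnemius 49.6% of all genes were called, so shifts with dose that genes share can enter it. The part of such shifts in these r was not tested. Acly was most like Antxr2 and Gmfb (both 0.972), and so was Fads1 (0.956 and 0.954). Elovl5 was most like Ywhaq (0.982) and Cd48 (0.979), and Elovl6 like Ppp1r12c (0.871) and Lpcat1 (0.865). Fasn was most like Mgst1 (0.904) and Cfd (0.884), and Scd like Thrsp (0.863) and Plin1 (0.855), genes known from fat and other lipogenic tissue. Me1 was most like Rtn2 (0.978) and Plpp7 (0.977). Acaca was most like Adcy6 (0.839) and Ebf1 (0.835), which dropped to 0.561 and 0.532 without replicate 3 of unexercised 0.1 mg/kg/day. Fads2 had no close partner, with 0.715 for Nt5c and 0.712 for Btbd10.

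The wider pathway was read from a list of 64 genes around these enzymes, of which 55 were tested. In exercised gastrocnemius at 1.0 mg/kg/day, 20 of the 55 rose and 14 fell, beside the 27.7% and 21.9% of all genes given above, and the median log2 fold change was 0.21. The list thus moved in both directions, and its parts went different ways.

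Among the regulators, Srebf1, the gene of the SREBP-1 factor, had signals of 699, 614, 812 and 369 in exercised rats on 1.0 mg/kg/day, against 4654, 1579, 3339 and 1679.6 on vehicle. The groups did not overlap, and Srebf1 fell by 2.06 ± 0.41 (limma, adjusted p = 0.000269), while Acly, Elovl5, Elovl6 and Fads1 rose on the same arrays. Srebf2, the gene of the factor best known for cholesterol synthesis, rose by 0.89 (limma, adjusted p = 0.00257), and Mid1ip1, a partner of acetyl-CoA carboxylase, by 1.18 (0.00584). Mlxipl, the gene of the glucose-responsive factor ChREBP, fell by 1.16 ± 0.33 (limma, adjusted p = 0.00632), and Usf2 fell by 0.45 (0.0368).

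Of the genes that bring citrate to the cytosol, Slc25a1, the mitochondrial citrate carrier, rose by 1.98 ± 0.42 (limma, adjusted p = 0.000524). Its signals were 580.1, 1523, 726 and 1236 in exercised rats on 1.0 mg/kg/day, against 209.7, 252, 279.6 and 190.1 on vehicle, with replicates 2 and 4 again the brightest. Citrate synthase (Cs) fell by 1.54, and the malate shuttle genes Mdh1 and Slc25a11 fell by 1.16 and 1.68.

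Of the other makers of NADPH and their pathways, 5 rose and 1 fell. Pgd, an enzyme of the pentose phosphate pathway, had signals of 1831, 2865, 2009 and 2589.6 on 1.0 mg/kg/day, against 419.8, 748, 535 and 454 on vehicle. Its groups were far apart, and it rose by 2.09 ± 0.33 (limma, adjusted p = 3.16e-05). Tkt, the transketolase of the same pathway, rose by 3.66 ± 0.50 (limma, adjusted p = 1.11e-05), and Taldo1, Pgls and the cytosolic isocitrate dehydrogenase Idh1 rose by 1.56, 0.79 and 1.11. The mitochondrial malic enzyme Me3 fell, like Me1, by 2.53 ± 0.60 (limma, adjusted p = 0.00132).

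Of the elongation cycle, Hacd2 rose by 2.86 ± 0.47, Hsd17b12 by 2.36 ± 0.38 and Elovl1 by 2.36 ± 0.42, while Hacd1, the dehydratase known from muscle, fell by 1.48. Of the desaturases and their electron donors, Fads3 rose by 1.58 ± 0.45, Scd2 by 1.47 ± 0.53, Degs1 by 1.49 and Cyb5r3 by 1.25. Scd2 thus passed the test where Scd did not, and the difference between them was not tested. Of the malonyl-CoA genes, Mlycd, which breaks malonyl-CoA down, fell by 1.14. Acacb, the carboxylase of the mitochondrial surface, had a log2 difference of -1.71 (limma, adjusted p = 0.0683). Acbd3, which the list placed with them though it is not a malonyl-CoA enzyme, rose by 0.72.

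Genes that activate fatty acids and pass them to glycerolipids moved both ways. Of the acyl-CoA synthetases, which activate fatty acids, Acsl6 fell by 3.87 ± 0.80 (limma, adjusted p = 0.000392) and Acsl1 by 2.25, while Acsl5 rose by 2.30 and Acsl4 by 0.57. Lpin1, a phosphatidate phosphatase abundant in muscle, fell by 2.85 ± 0.44 (limma, adjusted p = 3.15e-05), Lpin2 by 0.94 and the lipase relative Pnpla3 by 1.88, while Lpin3 rose by 1.43. Gpam and Dgat2, which catalyse the first and the last step of triglyceride synthesis, had log2 differences of 0.12 and -0.39 (limma, adjusted p = 0.879 and 0.53).

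At 1.0 mg/kg/day without exercise, 8 of the 55 listed genes rose in gastrocnemius and 4 fell, beside 7.32% and 3.96% of all genes. Slc25a1, Pgd, Tkt, Taldo1, Elovl1, Hsd17b12, Degs1 and Acsl5 rose, and Srebf1, Acsl6, Lpin1 and Lpin2 fell, by 1.63, 2.69, 1.91 and 1.17. In soleus at 1.0 mg/kg/day none of the 55 was called by limma in exercised or unexercised rats. Between the muscles of exercised vehicle rats, 7 were higher and 4 lower in soleus, beside 7.56% and 7.58% of all genes. In unexercised ones 5 were higher and 3 lower, beside 3.83% and 4.54%. In the muscle interaction of exercised rats, 8 had a higher and 11 a lower response in soleus, beside 12.5% and 16.8% of all genes, so that these counts are near the background.

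**Figure D5:**
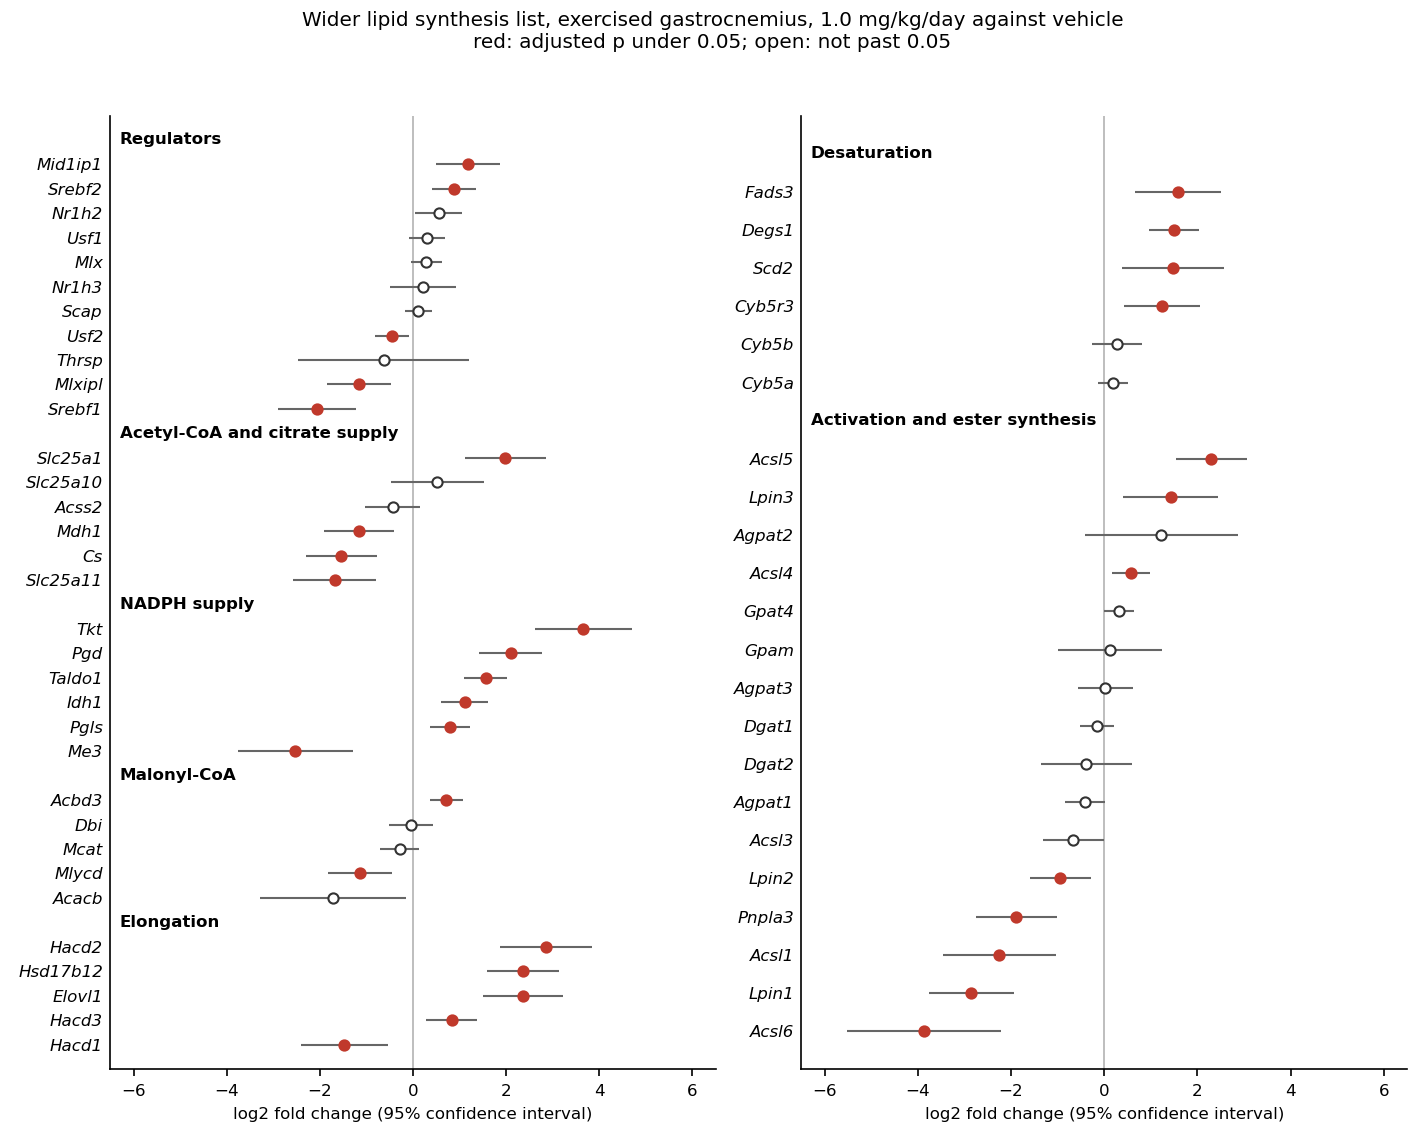
Log2 fold change with 95% confidence intervals of 55 lipid synthesis genes in exercised gastrocnemius, 1.0 mg/kg/day over vehicle, grouped by role; red points had an adjusted p under 0.05. Tkt, at 3.66, and Acsl6, at -3.87, lie at the ends, and 20 genes are called higher and 14 lower.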

How the data were processed

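RNA from rat gastrocnemius and soleus was hybridised to 45 single-colour arrays, 1 per sample. The authors deposited a linear intensity per probe set, computed by the MAS5 algorithm (per the submitters' processing notes). Which version they ran and which scaling target they set is not given in the sources used here. The labels number the arrays as replicates of a group and name no animals, so p-values measure only the spread between these samples, which may in part be technical. Of 31099 probe sets, 57 controls were left out. Of the 31042 others, 20826 had 1 gene symbol in the platform annotation, 436 had several and 9780 none, and those with several or none were not named. All 14 probe sets of the 9 enzymes had the same symbol in RefSeq.

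Signals were taken as log2(signal + 12.4), the offset being the 10th percentile of all signals, and probe sets with a mean under 6.03, the 30th percentile, were left out. Models of the group means were fitted with limma 3.58.1 (lmFit, eBayes with trend) in R 4.3.3. Comparisons within gastrocnemius used its 30 arrays, and those within soleus its 15 arrays. Comparisons between the muscles, and the interactions of muscle with dose, used all 45 arrays. There were 15 comparisons, and p-values were Benjamini-Hochberg adjusted over 21729 probe sets. The threshold was 0.05. A fold change on this scale understates the change of dim genes. A single comparison, 1.0 mg/kg/day in exercised gastrocnemius, was tested on simulated data with normal noise over 21729 probe sets. Of these, 100 were given a change of log2 size 1 and 100 a change of size 2. The fit found 38% of the first and 74% of the second, with 7 false calls. In the real comparison 9424 probe sets were called, which moves the Benjamini-Hochberg cut, so these rates do not carry over to it.

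The text names all 9 enzymes, the called genes of the wider list with its regulators, the markers, and for each enzyme the 2 genes most like it. The members and lists were chosen with earlier results of these data known. Alternatives changed the offset, filter, normalization, choice of probe set, samples in the fit, array weights and fat terms, and left out single arrays. The replicate numbers do not pair the samples: of 14 pairs of groups, 0 had correlations over 0.1 for all same-numbered arrays (range -0.345 to 0.342). No batch or date was given in the sources used here. No pair of arrays had the same values, the highest correlation between arrays being 0.966.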

Additional observations from a re-analysis of the deposited data

Results flagged for a closer look

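Within a group of 4 arrays, the gap of the highest or lowest signal to its nearest neighbour was divided by the group's range, and values above Dixon's 95% critical value were picked out. Of 81 groups of signals 5 were, and chance picks out about 1 in 20. Scd on replicate 2 of exercised soleus vehicle, at a signal of 11.3, was far below the other 3 (0.911 of the range). Scd on replicate 1 of unexercised gastrocnemius at 0.5 mg/kg/day, at 101.2, was far below the others as well (0.949). Acaca on replicate 4 of that same group, at 727, was above the others (0.875). Elovl5 on replicate 3 of unexercised soleus vehicle, at 5895, was above the others (0.85), and that array had a Cfd signal of 40884. Fads2 on replicate 2 of exercised gastrocnemius at 0.1 mg/kg/day, at 40, was below the others (0.855).

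The response to 1.0 mg/kg/day in exercised rats, soleus minus gastrocnemius, differed by the interaction test for Acly (-2.20 on the log2 scale), Elovl5 (-1.77) and Me1 (2.35), with limma adjusted p of 0.0125, 0.0304 and 0.0035. Of all genes 29.3% were called in that interaction, so these calls among the 9 enzymes are near the background. The Elovl5 call was lost in several fits that left out 1 array, as given above.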

How the results depend on the processing

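Counts are of the 9 enzymes called by limma. In exercised gastrocnemius at 1.0 mg/kg/day the count was 5. It was 8 with array weights, 7 with only the compared groups, without high-Cfd, low-actin or high-Adipoq arrays or with the Adipoq and Plin1 covariate, 6 with Cfd as a covariate or the larger offset, and 5 in the other settings; leaving out 1 array gave 5 to 7. The 5 calls held in all 22 settings that gave each a value (21 for Elovl6), with log2 differences of 1.85 to 2.91 for Acly, 1.29 to 2.32 for Elovl5, 2.01 to 3.16 for Elovl6, 1.86 to 2.95 for Fads1 and -3.01 to -1.93 for Me1. Scd reversed to -2.27 with Cfd as a covariate (adjusted p = 0.0162). In unexercised gastrocnemius the count was 1. It was 3 with the mean over a gene's probe sets, 0 with only the compared groups in the fit, 6 with array weights, 6 without the high-Cfd arrays, 0 with Cfd as a covariate, 5 without the 3 arrays of low actin ratio, 5 without high-Adipoq arrays and 2 with Adipoq and Plin1 as covariate; leaving out 1 array gave 0 to 3.

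Between the muscles the count was 3 in exercised vehicle rats. It was 1 with no filter, 1 with quantile normalization, 0 with the mean over probe sets, 5 with only the compared groups, 7 with array weights and 0 with either fat covariate; leaving out 1 array gave 1 to 4. In unexercised rats it was 0, and became 1 with a stricter filter, 1 with only the compared groups, 2 with array weights and 3 without high-Cfd, low-actin or high-Adipoq arrays; leaving out 1 array gave 0 to 1. The muscle interaction in exercised rats gave 3, with 7 under array weights, 6 without low-actin arrays, 5 with the Adipoq and Plin1 covariate and 2 to 4 without 1 array. In unexercised rats it gave 0, with 6 under array weights, 3 without high-Cfd, 1 without low-actin and 4 without high-Adipoq arrays, and 0 to 1 without 1 array. The exercise interaction gave 0, and 4 under array weights. The settings that use Adipoq were chosen after seeing the data. The cause of these differences was not tested, beyond the arrays each setting leaves out.

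With a replicate block the counts were 5 in exercised and 1 in unexercised gastrocnemius, 2 between muscles of exercised vehicle rats (Acaca and Elovl5), 3 in the exercised muscle interaction and 0 in the other comparisons. The Me1 difference between muscles was lost there, and since the numbers do not pair the samples this says nothing of its size. With the mean of Adipoq, Plin1, Cidec and Cfd in place of Cfd, 11 of the 18 correlations passed, against 13, and those of Acly (r = 0.574, adjusted permutation p = 0.077) and Fads1 (r = 0.517, adjusted permutation p = 0.12) in gastrocnemius did not. Centring arrays on their medians shifted the median over all probe sets in exercised gastrocnemius at 1.0 mg/kg/day to -0.107, against -0.006 as deposited. Groups of 3 or 4 samples, the fat on single arrays and signals near background for Elovl6, Fads2 and Scd limit what can be seen.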
